A study of Mus musculus with 2 samples.

Results

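The interleukin-1 family was described here through 8 genes, taken as the rows of the deposited count files whose symbol was Il1a, Il1b, Il1rn, Il33, Il18, Il1r1, Il1rl1 or Il1rap, out of 51912 gene rows in all. Each symbol matched 1 row, and 6 of the 8 genes reached 1 CPM (a count scaled to the library's depth) on average over the libraries, the level from which a gene is called measured. The data were RNA-seq of 2 mouse embryonic fibroblast (MEF) lines on a C57BL/6 background, both immortalized with SV40 T antigen and both treated with Ad-Cre, an adenovirus that delivers Cre recombinase. The line called KS kept wild-type Usp16 (Usp16+/+), and in the line called UKS the floxed Usp16 alleles were deleted (Usp16-/-). Usp16 encodes a deubiquitinase of histone H2A, and the comparison asks which transcripts differ between fibroblasts with and without it. Each line gave 1 library, so no difference has a replicate check, no p-value is given and every value describes these libraries. Whether a line came from 1 embryo or clone, and the embryo's age, were not stated in the labels.

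Interleukin-1 alpha (Il1a) and interleukin-1 beta (Il1b) are cytokines that bind the receptor Il1r1, which then pairs with the accessory protein Il1rap and signals through Myd88 and the IRAK kinases to NF-kB. The antagonist encoded by Il1rn binds the same receptor without recruiting the accessory protein. Interleukin-33 (Il33), a nuclear protein released from damaged stromal and epithelial cells, uses a parallel receptor, ST2 (Il1rl1), with the same Il1rap, and interleukin-18 (Il18) uses Il18r1 and Il18rap. Fibroblasts are known as cells that answer interleukin-1 with chemokines, proteases and acute-phase proteins.

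The agonists Il1a and Il1b were at or near 0 in both libraries while the genes for their receptor were well measured. Of the 6 measured genes only the antagonist Il1rn differed by at least 2-fold, 2.92-fold lower in UKS. As counted, Il1r1, Il33 and Il1rl1 were 1.51-fold, 1.37-fold and 1.30-fold lower in UKS, and Il1rap and Il18 were 1.11-fold and 1.62-fold higher. Once a trend with transcript length and GC content was removed, the log2 ratios of UKS over KS were −0.01 for Il1r1 and −0.09 for Il33. They were then 0.19 for Il1rl1, 0.74 for Il1rap and 0.43 for Il18, and Il1rn stayed past 2-fold at −1.35. Among the other genes of the pathway, a list of fibroblast genes that answer interleukin-1 stood far higher in UKS. That list was written with the high levels of several of its genes known, and 9 of its 25 genes past 2-fold were measured only through UKS. Of 21 signalling components between receptor and nucleus 20 lay within 2-fold, where 83.5% of all measured genes did.

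The sequences before the starts of Il1a and Il1b, which were silent, Il1rn, the gene past 2-fold, and Il1rl1, the most abundant of the 8, are shown as examples. Each is the 250 bases before a RefSeq transcription start on GRCm38.p6, printed 5′ to 3′ on the strand of the gene. Capitals mark matches, on either strand, to an AP-1 site (TGANTCA), a C/EBP site (TTGCNNAA) or a TATA box (TATAAA).

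Il1a (chr2:129309973-129310222, minus strand): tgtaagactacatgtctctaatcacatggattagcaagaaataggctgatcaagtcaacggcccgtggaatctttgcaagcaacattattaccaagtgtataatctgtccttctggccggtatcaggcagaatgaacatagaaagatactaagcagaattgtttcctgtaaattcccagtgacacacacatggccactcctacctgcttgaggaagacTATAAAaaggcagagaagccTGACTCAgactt

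Il1b (chr2:129371140-129371389, minus strand): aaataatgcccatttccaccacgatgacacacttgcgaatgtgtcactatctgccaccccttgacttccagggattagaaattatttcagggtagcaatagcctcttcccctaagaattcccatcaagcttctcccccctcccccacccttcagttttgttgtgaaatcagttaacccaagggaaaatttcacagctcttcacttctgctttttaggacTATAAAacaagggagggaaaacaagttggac

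Il1rn, upstream start (chr2:24336610-24336859, plus strand): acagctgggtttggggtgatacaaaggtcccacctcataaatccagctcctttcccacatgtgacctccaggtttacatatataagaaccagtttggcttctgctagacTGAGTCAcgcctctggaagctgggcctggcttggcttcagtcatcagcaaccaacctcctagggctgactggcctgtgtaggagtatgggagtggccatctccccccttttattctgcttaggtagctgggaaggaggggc

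Il1rn, downstream start (chr2:24345041-24345290, plus strand): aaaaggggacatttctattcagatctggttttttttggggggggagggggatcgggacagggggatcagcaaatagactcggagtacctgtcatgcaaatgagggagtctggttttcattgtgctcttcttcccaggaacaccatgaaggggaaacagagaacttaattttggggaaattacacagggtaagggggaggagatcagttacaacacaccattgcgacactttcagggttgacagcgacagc

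Il1rl1, upstream start (chr1:40429320-40429569, plus strand): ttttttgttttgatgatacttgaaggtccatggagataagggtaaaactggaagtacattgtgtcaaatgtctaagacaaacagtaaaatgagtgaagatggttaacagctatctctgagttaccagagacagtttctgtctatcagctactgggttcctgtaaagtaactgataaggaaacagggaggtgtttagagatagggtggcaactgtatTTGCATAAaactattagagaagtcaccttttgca

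Il1rl1, downstream start (chr1:40439379-40439628, plus strand): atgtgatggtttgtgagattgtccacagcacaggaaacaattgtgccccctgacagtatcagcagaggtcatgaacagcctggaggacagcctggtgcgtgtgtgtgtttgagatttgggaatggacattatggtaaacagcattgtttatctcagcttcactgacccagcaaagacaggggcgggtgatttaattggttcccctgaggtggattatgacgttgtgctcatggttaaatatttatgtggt

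The silent genes Il1a and Il1b each had a TATA box, beginning 32 and 31 bases before the start, and Il1a had an AP-1 match from 12 to 6 bases before it. The upstream Il1rn window had an AP-1 match from 141 to 135 bases before its start, and the upstream Il1rl1 window a C/EBP match from 34 to 27 bases before its start. The downstream windows of Il1rn and Il1rl1 printed above held no match to any of the 6 motifs searched. RefSeq gave 13 windows for the 8 genes, 5 of which held TATAAA, against 12.4% of all 32851 windows of this length. Those 5 were not limited to the silent genes. The measured Il33, whose windows are not printed, held TATAAA 29 to 24 bases before its downstream start. Il33 also held it 203 to 198 bases before its upstream start, and the Il18 window held a match on the other strand. AP-1 matches were found in 2 of the 13 windows (6.75% of all windows) and C/EBP matches in 3 (9.56%). The NF-kB motif in its full form was in none of the 13 (0.356% of all), its shorter form GGNNTTTCC, which can overlap the full one, was in 1, at an Il1rn start not printed (4.93% of all), and the STAT motif TTCNNNGAA was in none (7.02% of all). These matches are descriptions of letters, and the counts per gene do not show which start was used.

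Il1a (ENSMUSG00000027399; GRCm38 chromosome 2, 129299610 to 129309972, minus strand) had 1 count in KS and 0 in UKS. Il1b (ENSMUSG00000027398; chromosome 2, 129364570 to 129371139, minus strand) had no count in either library. A count of 0 allows up to 3 counts, which equals 0.114 CPM in KS and 0.128 CPM in UKS, so both agonists were at or under this limit and no fold is given. The nearest measured gene on each side was the mitotic gene Ckap2l, with 1557 and 1109 counts, and Sirpa, a receptor for CD47, with 1262 and 1796. Both were picked because they reached the level for a measured gene, so any unread gene in between was passed over.

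Il33 (ENSMUSG00000024810; chromosome 19, 29925114 to 29960718, plus strand) had 1085 counts in KS and 702 in UKS, or 41.1 and 30.1 CPM. Its CPM was 1.37-fold lower in UKS, with an exact 95% interval of 1.24 to 1.51 from the counts. Such intervals cover counting error only and not the variation between cultures, and in bulk RNA fewer cells expressing a gene and less RNA per cell cannot be told apart. Il18 (ENSMUSG00000039217; chromosome 9, 50554827 to 50581840, plus strand) had 37 counts in KS and 53 in UKS, or 1.40 and 2.27 CPM. With so few reads its UKS to KS ratio of 1.62 had an interval of 1.04 to 2.54, and the Poisson intervals of the counts, 26.1 to 51.0 and 39.7 to 69.3, overlapped. Il33 was therefore the only agonist of the family list read at more than a few CPM, among Il1a, Il1b, Il33 and Il18, and both Il33 and Il18 lay within 2-fold.

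Il1rn (ENSMUSG00000026981; chromosome 2, 24336853 to 24351494, plus strand), the receptor antagonist, had 1388 counts in KS and 420 in UKS, or 52.6 and 18 CPM. It was 2.92-fold lower in UKS (95% interval 2.62 to 3.27), a log2((UKS + 1)/(KS + 1)) of −1.50 on the scale with a pseudocount of 1 CPM. On this scale 5.81% of the 13015 measured genes of the whole table were past 2-fold upward in UKS and 10.7% past it downward. Of the 6 measured family genes none was past 2-fold upward and 1 (16.7%) was past it downward, a share of a single gene that is not set apart from the background. The ratio of Il1rn stood at percentile 4.05 from the lowest of all 13015 genes. Its gene makes secreted and intracellular forms of the antagonist from different first exons, which counts per gene do not separate. The nearest measured genes did not share its direction throughout. Spopl upstream was at 24.7 and 10.6 CPM (log2 ratio −1.15) and Psd4 downstream was at 1.82 and 3.51 CPM (log2 ratio 0.68). With the length and GC trend described below removed, Spopl was at 0.12 and Psd4 at 1.30, past 2-fold upward. The genes Lbh, Plcxd2 and Abca1 had the log2 ratios nearest to that of Il1rn over these 2 libraries, each within 0.01 of it. This likeness rests on 1 ratio per gene and holds only as counted. With the same trend removed the log2 ratios were −1.64 for Lbh, −0.85 for Plcxd2 and −0.78 for Abca1, beside −1.35 for Il1rn.

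**Figure D1:**
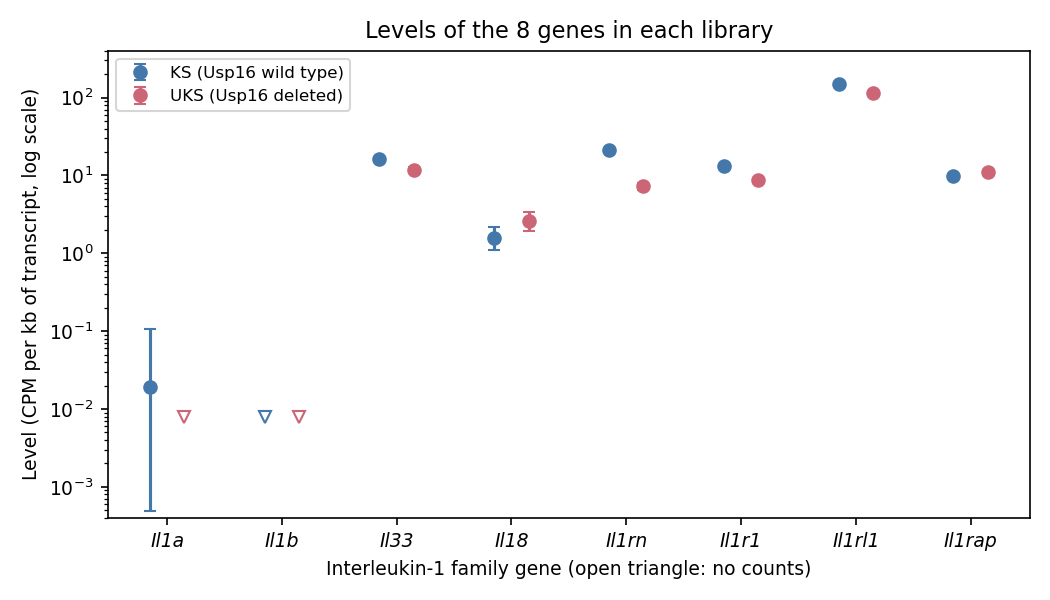
Levels of the 8 genes in CPM per kb of transcript on a log axis, KS in blue and UKS in red, 1 library each; bars are exact 95% Poisson intervals of the counts and open triangles mark libraries with no counts, placed at an arbitrary height. Il1rl1 stands highest at 150 and 116 CPM per kb, Il1rn is at 21.3 and 7.27, and Il1a and Il1b are at or near 0.

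Il1rl1 (ENSMUSG00000026069; chromosome 1, 40429570 to 40465415, plus strand), which encodes the interleukin-33 receptor ST2, was by far the most abundant of the 8. It had 21049 counts in KS and 14320 in UKS, or 797 and 613 CPM, 1.30-fold lower in UKS as counted (1.27 to 1.33), a direction that turned with the length and GC trend described below removed (log2 ratio 0.19). Per kb of transcript its level was 150 CPM in KS and 116 CPM in UKS, rank 380 and rank 605 from the highest among 12997 genes with a known length. It made up 70.7% of the summed per-kb level of the 8 genes in KS and 73.6% in UKS. The gene gives a membrane receptor and a shorter secreted decoy that binds interleukin-33, and counts per gene do not tell these forms apart. Where the shorter form is the one expressed, dividing by the length of the longest transcript (5302 nt) understates its level. As counted, the per-kb ratio of Il1rl1 to its ligand Il33 was 9.31 in KS and 9.79 in UKS.

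Il1r1 (ENSMUSG00000026072; chromosome 1, 40225080 to 40317257, plus strand), the signalling receptor for Il1a and Il1b, had 2045 counts in KS and 1197 in UKS, or 77.5 and 51.3 CPM. It was 1.51-fold lower in UKS (1.41 to 1.62). Since the antagonist was lower by more than the receptor, the per-kb ratio of Il1rn to Il1r1 was 1.60 in KS and 0.83 in UKS. Il1rap (ENSMUSG00000022514; chromosome 16, 26581704 to 26730117, plus strand), the accessory chain shared by Il1r1 and Il1rl1, had 1181 counts in KS, rounded from 1180.69, and 1161 in UKS. Scaled to depth these were 44.7 and 49.7 CPM, a UKS to KS ratio of 1.11 (1.02 to 1.21). The per-kb ratio of Il1r1 to Il1rap was 1.35 in KS and 0.80 in UKS, and that of Il1rl1 to Il1rap was 15.2 and 10.5.

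Ranked by level per kb, KS had Il1rl1 first, then Il1rn (21.3 CPM), Il33 (16.2), Il1r1 (13.3), Il1rap (9.90) and Il18 (1.58). In UKS the order after Il1rl1 was Il33 (11.8 CPM per kb), Il1rap (11), Il1r1 (8.81), Il1rn (7.27) and Il18 (2.56). Il1rn thus went from the second to the fifth place. Of neighbours in these orders only Il33 and Il1rap in UKS had overlapping counting intervals (11 to 12.7 and 10.4 to 11.7 CPM per kb), and no spread between cultures can be given.

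Differences of this size have to be read beside the composition of the transcripts, since ratios over the whole table followed transcript length and GC content, with long and AT-rich transcripts lower in UKS. The 6 measured genes had transcripts with a GC content of 42.1 to 45.2%, under the median of 49.9% over all measured genes, and those of Il1rap, Il1rl1 and Il1r1 were long (4520, 5302 and 5819 nt against a median of 3158 nt). The trend fitted at their length and GC content was a log2 ratio of −0.59 for Il1rap, −0.58 for Il1r1, −0.57 for Il1rl1, −0.34 for Il33, −0.14 for Il1rn and 0.01 for Il18. With that trend removed, Il1r1 had a log2 ratio of −0.01 (−0.59 as counted), Il33 of −0.09 (−0.44 as counted), Il1rl1 of 0.19 (−0.38 as counted) and Il1rap of 0.74 (0.15 as counted). Il18 stayed at 0.43 (0.45 as counted). Il1rn had −1.35 (−1.50 as counted) and was again the only one of the 6 past 2-fold, where 5.49% of 12997 genes were past it upward and 4.96% downward. The median log2 ratio of the 6 genes was −0.41 as counted and became 0.09 after removal of the trend, beside 0.03 and 0.01 over all genes. The lower levels of Il1r1, Il33 and Il1rl1 in UKS are hence values as counted, and the source of the trend was not tested.

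**Figure D2:**
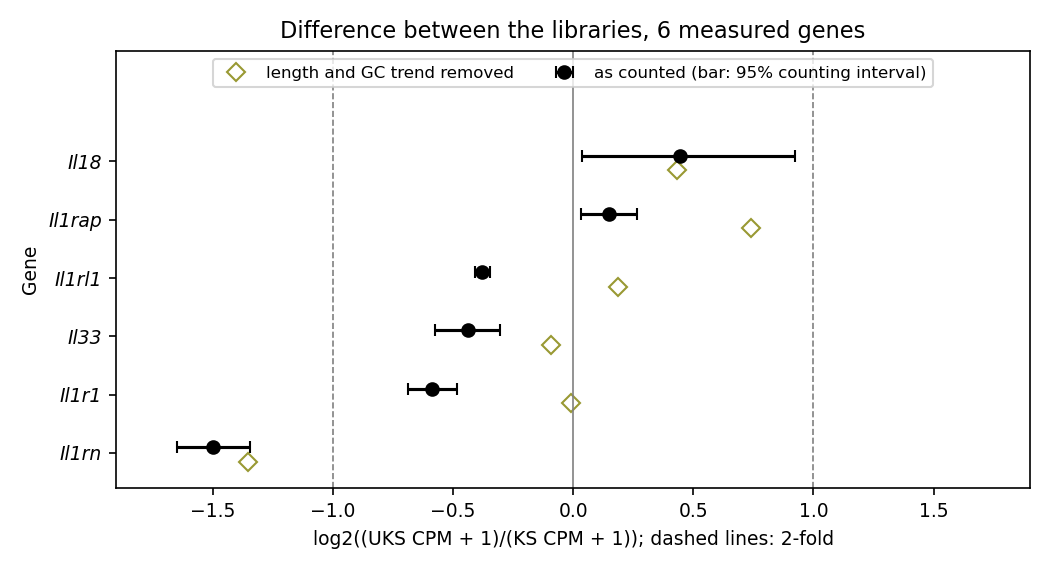
Log2 ratio of UKS over KS for the 6 measured genes; black points are the values as counted with exact 95% counting intervals, open diamonds the values with the length and GC trend removed, and dashed lines mark 2-fold. Il1rn lies past 2-fold both ways (−1.50 and −1.35), and Il1rl1 crosses 0 (−0.38 and 0.19).

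Both receptors lie in a cluster of interleukin-1 receptor genes on chromosome 1. From the decoy receptor Il1r2 onward the KS and UKS levels in CPM were 0.189 and 0.0857 for Il1r2, 77.5 and 51.3 for Il1r1, 17.0 and 8.82 for the interleukin-36 receptor Il1rl2, 797 and 613 for Il1rl1, 0.189 and 0.0428 for the interleukin-18 receptor Il18r1 and 25 and 31.8 for its partner chain Il18rap. Adjacent genes of the cluster thus differed widely in level within a library: the near-silent Il18r1 adjoins the abundant Il1rl1, and the near-silent Il1r2 adjoins Il1r1. Il1rl2 (448 and 206 counts) had a log2 ratio of −0.87, within 2-fold on this scale, and Il18rap (659 and 742 counts) was 1.27-fold higher in UKS (1.14 to 1.42). Il18r1, the chain that binds interleukin-18, had only 5 and 1 counts. The flanking genes Map4k4 and Mfsd9 had log2 ratios of −0.13 and −0.25.

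**Figure D3:**
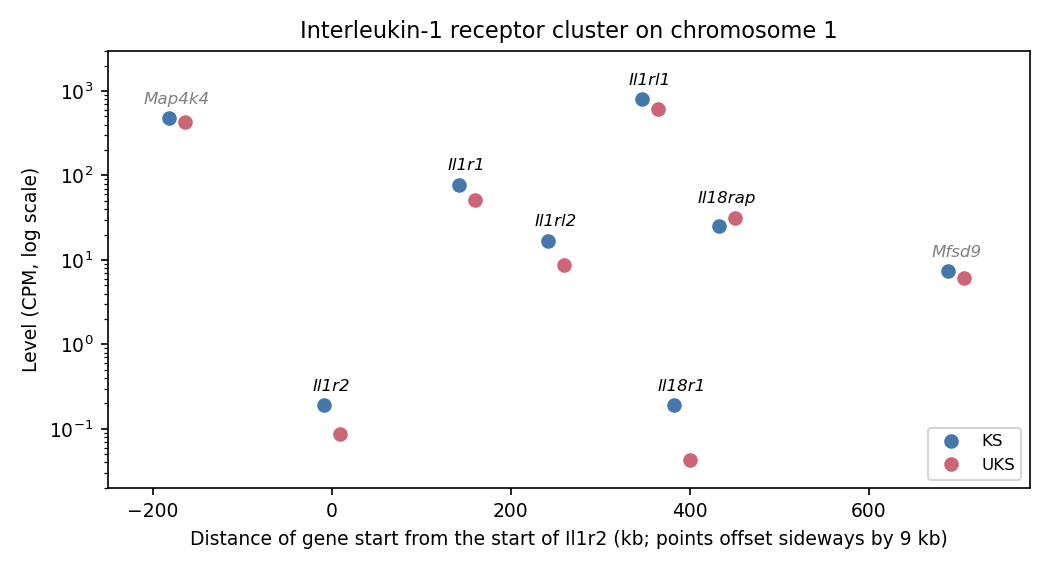
Levels in CPM (log axis) of the 6 receptor genes of the chromosome 1 cluster and of the measured genes on either side (grey names), against the distance of each gene's start from that of Il1r2 in kb; KS in blue, UKS in red. Il1rl1 at 797 and 613 CPM stands beside Il18r1 at 0.189 and 0.0428.

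The other ligands, receptors and decoys of the family were mostly unread. Of 13 such genes 3 were measured, Il1rl2, Il18rap and Il18bp, and none was past 2-fold in either direction (median log2 ratio 0.34). Il18bp, a secreted protein that neutralizes interleukin-18, had 83 and 130 counts, a UKS to KS ratio of 1.77 (1.33 to 2.36). The interleukin-36 antagonist Il36rn, the agonist Il36b and Il1f10 had no count in either library, and Il36a and Il36g had 1 count in 1 library each. The inhibitory receptor Sigirr had 15 and 29 counts, and the neuronal receptors Il1rapl1 and Il1rapl2 had 9 and 2 and 1 and 0.

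The next group carries the signal from the receptor to NF-kB. Of 21 measured adaptors, kinases and ubiquitin enzymes 1 was at least 2-fold lower, none higher and 20 (95.2%) within 2-fold, where 10.7% of all measured genes were lower, 5.81% higher and 83.5% within, with a median log2 ratio of −0.28. The lower one was Tab3, an adaptor of the kinase TAK1, at 23.0 and 6.21 CPM (log2 ratio −1.74). With the trend removed Tab3 was at −0.92 and the median was 0.02. None of the 21 was then past 2-fold, where 5.49% of 12997 genes were past it upward and 4.96% downward. The adaptor Myd88 was at 40.8 and 60.6 CPM, the kinase Irak1 at 97.7 and 96.4 CPM and the NF-kB subunit Rela at 91.9 and 128 CPM. Ube2v1 and Rela were the most abundant of the list per kb by the mean of the libraries. Irak3, which restrains the pathway, was 11.9 CPM in KS and 7.79 CPM in UKS, within 2-fold.

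Genes that mature or release these cytokines included several that were higher in UKS. Of 17 listed genes 11 were measured, of which 3 were past 2-fold upward and none downward (5.81% and 10.7% of all measured genes), with a median log2 ratio of 0.50. The caspase Casp4, which senses bacterial lipopolysaccharide, was at 6.14 and 22.1 CPM (log2 ratio 1.70), and Ninj1, which ruptures the membrane of dying cells, was at 23.1 and 75.9 CPM (log2 ratio 1.67). The DNA sensor Aim2 had 3 and 48 counts, a UKS to KS ratio of 18.1 (5.83 to 90.8), and was measured only through its UKS level. The calpain subunits Capns1 and Capn2 were the most abundant per kb by the mean and within 2-fold. With the trend removed 4 of the 11 were past 2-fold upward, where 5.49% of 12997 genes were, and the median was 0.01. The gene that joined them was Gsdme (log2 ratio 1.31, 0.67 as counted). Of the inflammasome, the complex that activates interleukin-1 beta, the sensors Nlrp1b, Nlrc4 and Mefv had no count in either library. Nlrp3 had 0 and 20 counts, 7.54-fold higher in UKS if KS is set at 3 counts, with an exact lower limit of 5.58. Its adaptor Pycard had 2 and 22 counts (ratio 12.4, 3.06 to 109). Casp1, the protease that cuts interleukin-1 beta, had 0 and 4, a difference within counting error. Nlrp3, Pycard and Casp1 were under the mean of 1 CPM and were named after their values were seen, and Il1b had no count in either library.

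The group with the largest difference was that of fibroblast genes known to answer interleukin-1. Of 32 listed genes 29 were measured, of which 25 (86.2%) were past 2-fold upward in UKS and none downward, where 5.81% and 10.7% of all measured genes were. Their median log2 ratio was 2.69, and 2.73 with the trend removed, when 24 were higher, beside 5.49% of 12997 genes. Of the 25, 9 were under 1 CPM in KS and were measured only through their UKS level, so the difference itself brought them into the count. The list was written with the high levels of several of its genes in these libraries known, so it is not independent evidence of its direction, and most of its genes also answer other signals that act through NF-kB. The genes with the largest log2 ratios were the iron-binding protein gene Lcn2 (7.43), complement C3 (6.58), serum amyloid Saa3 (6.35), the chemokine Cxcl1 (6.28), the nitric oxide synthase Nos2 (5.62) and the protease Mmp3 (4.35). In KS, Lcn2, Saa3 and Nos2 had only 4, 4 and 1 counts, so their log2 ratios depend on the pseudocount of 1 CPM. These were among the 9 measured only through UKS. In KS, C3, Cxcl1 and Mmp3 had 43, 63 and 208 counts. The most abundant per kb by the mean was the chemokine Ccl2, at 110 and 255 CPM. Il6, Nfkbia and Csf3 were named after their values were seen. The cytokine Il6 had 24 and 133 counts (6.27-fold higher, 4.04 to 10.1). The NF-kB inhibitor Nfkbia had 508 and 2288 counts (5.09-fold higher, 4.62 to 5.62). The neutrophil growth factor Csf3 had 0 and 229 counts, 86.3-fold higher if KS is set at 3 counts, with an exact lower limit of 69.6. The 4 measured genes within 2-fold were Ccl7 (log2 ratio 0.24), Vcam1 (0.15), Birc3 (0.44) and Nfkb2 (0.98). In the same libraries Il1a had 1 count in KS and 0 in UKS, and Il1b had none in either. Il1r1 was 1.51-fold lower in UKS as counted, but had a log2 ratio of −0.01 with the trend removed. Il1rap had log2 ratios of 0.15 and 0.74, and the antagonist Il1rn was 2.92-fold lower as counted. The part of interleukin-1 in the levels of the response genes was not tested.

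**Figure D4:**
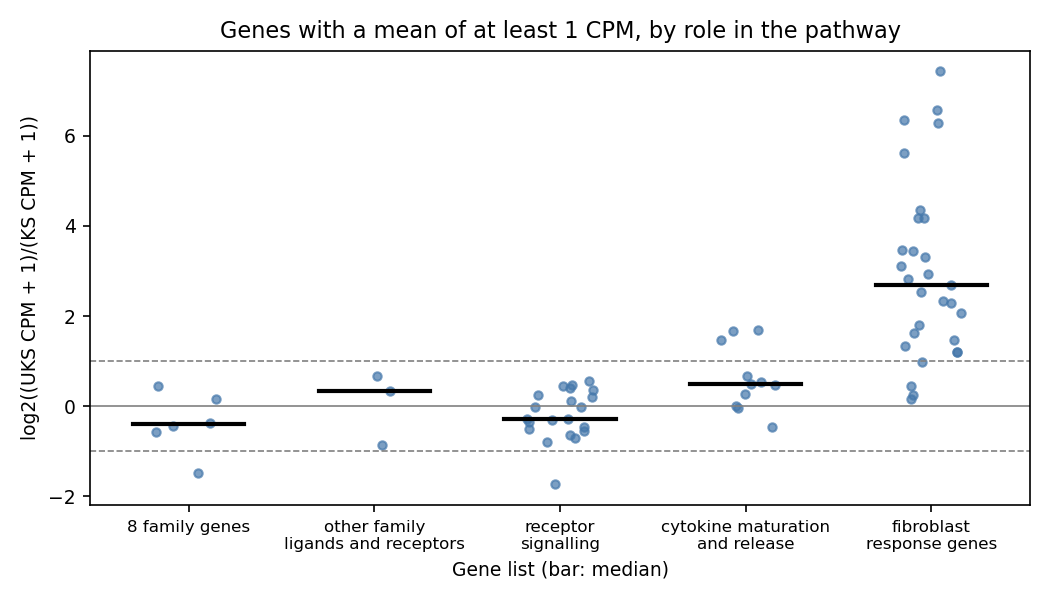
Log2 ratio of UKS over KS for the measured genes of 5 lists ordered by role; each point is 1 gene, bars are medians and dashed lines mark 2-fold. The fibroblast response genes have a median of 2.69, while the 8 family genes (6 measured) and the receptor signalling genes have medians of −0.41 and −0.28.

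The targeted gene Usp16 had 1195 counts in KS and 459 in UKS (log2 ratio −1.16, and −0.88 with the trend removed), from totals of 26561600 and 23205734 rounded counts. Reads of Usp16 thus remained in UKS, and counts per gene do not show whether they came from the deleted part. The libraries also differed in sex-linked transcripts: Xist had 1 and 6998 counts, and the Y-linked Ddx3y, Eif2s3y, Kdm5d and Uty had 817 to 1511 counts in KS and 0 to 8 in UKS. The lines therefore differ in the sex of the embryo as well as in Usp16, and the part of either in the values above cannot be told apart. Markers of other cells that make or read these cytokines were few. Of 10 macrophage markers, 1 of which (Itgam) had its symbol on more than 1 row and was not used, Adgre1, Tyrobp and Fcer1g were at 0 in both libraries and Ptprc had 2 and 1 counts. Their summed level was 25.9 CPM in KS and 68.0 CPM in UKS, nearly all from Cd14 (18.8 and 62.3 CPM) and Cd68 (5.83 and 4.84 CPM). Of 8 mast cell and basophil markers Cpa3, Mcpt4, Tpsb2 and Fcer1a were at 0 and Kit had 0 and 1 counts, although mast cells are a classical site of ST2, and the summed level of 23.3 and 17.3 CPM was nearly all Mcpt8 (22.7 and 16.6 CPM), with Hdc at 0.492 and 0.642 CPM. Of the lymphoid markers Cd3e, Cd4, Cd8a and Il7r were at 0, and the list had 13.6 and 10.5 CPM in sum, led by Rora (12.8 and 10.2 CPM) and Gata3 (0.795 and 0.257 CPM). Of 8 epithelial markers Krt5 and Krt14 were at 0, with 22.0 and 13.2 CPM in sum, led by Krt19 (16.0 and 11.4 CPM) and Krt18 (2.95 and 0.771 CPM). Of the 3 measured ones Krt18 and Dsp were at least 2-fold lower in UKS, where 10.7% of all measured genes were. Both were under 1 CPM in UKS and were measured only through their KS level, so the difference itself brought them into the count. With the trend removed Krt18 stayed past 2-fold (log2 ratio −1.65), as 4.96% of 12997 genes were downward, and Dsp did not (−0.82). The 7 endothelial markers summed to 3.71 and 3.64 CPM, Cldn5 was at 0, and Kdr and Vwf led them. All 10 fibroblast markers were measured, with a sum of 18887 and 21251 CPM, and Fn1 and Vim were the most abundant. Pdgfra and Thy1 were at least 2-fold lower and Dcn at least 2-fold higher in UKS, beside 10.7% and 5.81% of all measured genes. With the trend removed these 3 stayed past 2-fold and Vim was past it downward as well (log2 ratio −1.14). Beside them 4.96% of 12997 genes were then lower and 5.49% higher. The part of these markers in the levels of the 8 genes was not tested.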

How the data were processed

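Per gene, the authors deposited estimated counts (expected counts) with no scaling to depth, in 1 file per library of 51912 gene rows. The submitters' processing notes list HISAT2, StringTie and the build GRCm38.p5 with no role. No source used here gives the counter, the annotation release or the use of strand, so reads of overlapping genes cannot be told apart; no gene whose exons overlap those of the 8 had more than 2 counts. Total RNA was made into TruSeq libraries, per the labels' protocols. Both lines share 1 more engineered alteration, which is not reported here.

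Counts were rounded to whole numbers (of the genes above 0, 23.1% were not whole in KS and 21.5% in UKS) and scaled to CPM by TMM (edgeR 4.0.16, R 4.3.3). The difference was log2((UKS + 1)/(KS + 1)), in CPM, over the 13015 genes that averaged 1 CPM or more. A size of 2-fold stood in for a test, since each group had 1 library. Intervals of ratios were conditional binomial (Clopper-Pearson) and those of counts Poisson, both exact at 95% (scipy 1.17.1). Coordinates, and the length and GC content of the longest protein-coding transcript, came from GENCODE M21 on GRCm38, which held 51633 of the identifiers. Promoter windows came from RefSeq on GRCm38.p6, in which all 8 genes were found. The length and GC trend was a robust regression (statsmodels 0.14.6) on log2 length and GC content with cubic terms, fitted outside the lists; a true difference that follows these properties would be removed with it. Named genes were the 8, Usp16, up to 6 past 2-fold per list with the largest log2 ratios, its 2 most abundant per kb, and adjacent or nearest-ratio genes; others are marked or serve as examples chosen by role. The steps were tested on simulated data. The genes, the 5 pathway lists and the 6 marker lists were chosen with earlier results of these data known. Of the list symbols 5 were matched through older symbols.

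Alternatives were total-count scaling, DESeq2 1.42.0 size factors, a pseudocount of 0.25 CPM, no filter, a filter at 5 CPM, counts not rounded, and the trend removed.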

Additional observations from a re-analysis of the deposited data

How the results depend on the processing

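Over 7 alternatives to the scaling, pseudocount, filter, rounding and trend, 125 of 132 recomputed values stayed within their counting interval or, for counts of genes, within 1.5 times. A change of filter cannot alter the log2 ratio of a gene, so those values were bound to stay and the total is no measure of robustness. The 7 values that moved all came with the length and GC trend removed. There the log2 ratios were −0.094 for Il33, −0.0078 for Il1r1, 0.19 for Il1rl1, 0.74 for Il1rap and −0.88 for Usp16, the receptor signalling genes at least 2-fold lower numbered 0, and all genes at least 2-fold lower numbered 645 in place of 1396, beside 714 in place of 756 higher. The cause was not tested. Under the other alternatives Il1rn had log2 ratios of −1.53 to −1.48, Il1rap 0.12 to 0.17 and Il18 0.43 to 0.61. Il18 had no value under the filter at 5 CPM. Depth limits Il1a, Il1b and Il18r1, with at most 5 counts in a library, and Il18. No paired analysis was possible because each group holds 1 library, and no library could be left out.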
